A study of Mus musculus with 7 samples.

Results

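The 42 genes described here lie at the centromeric end of the mouse X chromosome. They are the genes whose smallest start is under 20 Mb (mm10) in the allelic ratio table of at least 1 of 2 reciprocal cell lines, without Shroom4, Suv39h1, Dynlt3, Usp9x, Ddx3x, Fundc1 and Kdm6a, which brings the 49 table genes of this interval to 42. The tables together hold 410 genes, so the 42 are a small stretch of what was measured. All 42 are in the table of iXist-ChrX-Dom and 40 in that of iXist-ChrX-Cast (Nudt10 and Prickle3 are absent from it). Within the tables they were chosen by position and by leaving out 7 genes. The tables hold genes that passed the authors' filters, and 74 of the 123 annotated genes before 20 Mb are in neither. The 7 genes left out include those with the highest ratios of the interval in iXist-ChrX-Dom, so the medians below are of the stretch without them.

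Both lines are female XX mouse embryonic stem cells (mESCs) from 1 hybrid of a Mus musculus domesticus strain (129S, the Dom allele) and a Mus musculus castaneus strain (the Cast allele). In each line a doxycycline-inducible TetO promoter stands in place of the promoter of Xist, on the Dom X chromosome in iXist-ChrX-Dom (n = 4 samples) and on the Cast X chromosome in iXist-ChrX-Cast (n = 3 samples). All 7 samples had 1 µg/mL doxycycline for 10 days and were kept undifferentiated, and each line is an engineered clone. Chromatin-associated RNA was sequenced, which reads mostly nascent transcripts. Uninduced cells were not analysed here, and none of the values measures an effect of induction. In iXist-ChrX-Dom, replicates 3 and 4 are described as d1 although their titles give 10 days, and in iXist-ChrX-Cast the files of replicates 1 and 2 are named for a clone other than the labelled one. The counts of genes that differ in ratio or in total counts are given with and without these samples.

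X chromosome inactivation equalises the dose of X-linked genes between XX and XY mammals. Xist, a long noncoding RNA, coats in cis the chromosome that makes it and recruits repressors, SPEN and the Polycomb complexes among them, after which most genes of that chromosome fall silent. The chromosome that carries induced Xist is called Xi here and the other one Xa. The allelic ratio, Xi/(Xi+Xa), is the share of a gene's allele-assigned fragments that comes from Xi. It is 0 for a gene silent on Xi and 0.5 for equal output from both chromosomes.

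The genes stand in 4 groups separated by gaps. From 6.0 to 8.3 Mb lie 28 of them, most in a dense run between Ppp1r3f and Ftsj1. From 9.2 to 10.6 Mb lie Lancl3, Xk, Sytl5, Rpgr and Tspan7, from 12.0 to 13.8 Mb lie Bcor, Atp6ap2, 1810030O07Rik, Med14, Gm14634, 5730405O15Rik and Cask, and at 16.6 to 17.3 Mb lie Maoa and Efhc2. Start regions were read from RefSeq for 37 of the 42, as windows of 250 bases before to 50 after the start on GRCm38.p6, the assembly that mm10 names. Plp2, Kcnd1, Rbm3, Porcn and Cask had no match. For 33 of the 37 the start used was within 100 bp of the start in the count annotation. It was 94177 bp away for Dgkk, 708 for Wdr45, 573 for Efhc2 and 257 for Tbc1d25. The median window had 20 CpG dinucleotides, against 7 over 27025 windows of all genes and 7 over 1046 of the X chromosome, and a GC content of 60.3% against 52.7% and 50.7%. GGGCGG, the GC box, occurred on either strand in 56.8% of the 37 windows and in 35.9% of all windows, and TATAAA in 5.41% against 14.2%. The sets are unlike, since the 37 genes had passed a filter on allelic depth in these cells. The other windows were taken without regard to expression. Across genes, the number of CpG in the window and the mean ratio had a Spearman rho of -0.045 in iXist-ChrX-Dom (37 genes) and 0.113 in iXist-ChrX-Cast (35 genes), given as a description.

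The start regions of 4 genes are shown because results below turn on these genes, in lower case with each CpG in capitals. Pqbp1 (chrX:7899220-7899519, minus strand) starts 128 bp from Timm17b, which is read in the opposite direction, so that the window holds the annotated starts of both. Med14 (chrX:12761924-12762223, minus strand) starts 304 bp from Gm14634, which is also read in the opposite direction. The annotated start of Gm14634 lies outside the Med14 window. Rpgr (chrX:10216746-10217045, minus strand) had 1 of the clearest differences between the lines. Sytl5 (chrX:9885371-9885670, plus strand) had the lowest ratio in iXist-ChrX-Dom, and its window holds 1 CpG against 32, 34 and 19 in the other windows shown.
Pqbp1: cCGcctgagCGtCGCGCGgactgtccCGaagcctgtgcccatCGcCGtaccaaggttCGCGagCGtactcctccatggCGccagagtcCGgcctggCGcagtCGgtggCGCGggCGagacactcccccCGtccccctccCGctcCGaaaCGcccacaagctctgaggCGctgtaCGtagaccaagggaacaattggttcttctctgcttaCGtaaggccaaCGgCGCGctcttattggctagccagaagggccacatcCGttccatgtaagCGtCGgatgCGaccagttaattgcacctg
Med14: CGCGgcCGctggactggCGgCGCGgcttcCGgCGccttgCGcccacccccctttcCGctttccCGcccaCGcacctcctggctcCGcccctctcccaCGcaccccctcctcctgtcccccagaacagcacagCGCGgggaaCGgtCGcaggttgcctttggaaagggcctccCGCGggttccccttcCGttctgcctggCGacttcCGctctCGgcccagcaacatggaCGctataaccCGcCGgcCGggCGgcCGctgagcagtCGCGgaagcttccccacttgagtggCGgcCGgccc
Rpgr: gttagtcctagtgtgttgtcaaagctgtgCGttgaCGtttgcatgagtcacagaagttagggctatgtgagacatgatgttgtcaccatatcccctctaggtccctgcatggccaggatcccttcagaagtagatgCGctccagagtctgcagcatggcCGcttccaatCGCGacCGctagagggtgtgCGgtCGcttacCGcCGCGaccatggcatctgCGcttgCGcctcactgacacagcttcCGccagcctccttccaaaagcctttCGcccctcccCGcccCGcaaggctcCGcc
Sytl5: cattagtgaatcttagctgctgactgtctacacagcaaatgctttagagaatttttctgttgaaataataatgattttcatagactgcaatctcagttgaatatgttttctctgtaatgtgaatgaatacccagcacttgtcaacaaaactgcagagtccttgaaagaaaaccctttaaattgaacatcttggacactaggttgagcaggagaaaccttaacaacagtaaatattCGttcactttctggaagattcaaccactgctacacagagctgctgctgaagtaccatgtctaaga

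Sequencing gave 14877384 to 24309806 counted fragments per sample, of which 44.2% to 46.4% were assigned to an allele. The 42 genes held 24377 to 38001 fragments per sample (0.156% to 0.164%) and 10541 to 16921 allelic ones, with a median of 92 to 149.5 allelic fragments per gene and at most 1 gene with fewer than 10. Xist stood at 5319 to 7045 CPM (counts scaled to a common library size). Of 8 listed markers of embryonic stem cells, 7 were counted in every sample (1339 to 1655 CPM summed in iXist-ChrX-Dom, 1533 to 1661 in iXist-ChrX-Cast) and Sox2 had 0 fragments. Neural progenitor markers summed to 21.1 to 44.6 CPM and 15.1 to 22.2 CPM, with Sox1 at 0, and 7 fibroblast markers, for the feeder cells of the culture, to 21.9 to 34.9 and 24.8 to 32.3 CPM. Their part in the results was not tested. Whether 0 fragments for Sox2 and Sox1 mean absent transcription or come from how fragments were counted was not tested either. Nothing in the labels says that replicates came from separate cultures, so p-values measure the spread between these samples, which may be technical.

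Most of the 42 genes still gave a measurable share of their transcripts from Xi after 10 days. The median ratio over the genes was 0.193, 0.177, 0.181 and 0.218 in the 4 iXist-ChrX-Dom samples (0.192 ± 0.0182, SD, n = 4) and 0.200, 0.210 and 0.215 in the 3 of iXist-ChrX-Cast (0.209 ± 0.00783, n = 3). The remaining genes of the tables, the 7 left-out ones included, had 0.136 ± 0.0219 (204 genes) and 0.113 ± 0.0110 (359 genes). The genes at the centromeric end were higher by 0.0558 ± 0.0130 in iXist-ChrX-Dom and by 0.0953 ± 0.0168 for iXist-ChrX-Cast, in 4 of 4 and 3 of 3 samples. With means over genes in place of medians, the differences were 0.0337 and 0.0753. The difference was also positive in every sample against the genes from 20 to 60 Mb (0.0476 and 0.107), against those from 60 Mb to Xist (0.0661 and 0.0850) and, in iXist-ChrX-Cast, against the 159 genes beyond Xist (0.103). No gene beyond Xist is in the iXist-ChrX-Dom table. Without iXist-ChrX-Dom replicates 3 and 4, the median was 0.185 and the difference 0.0654. Differences between sets of genes are given as descriptions, with no test.

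**Figure D1:**
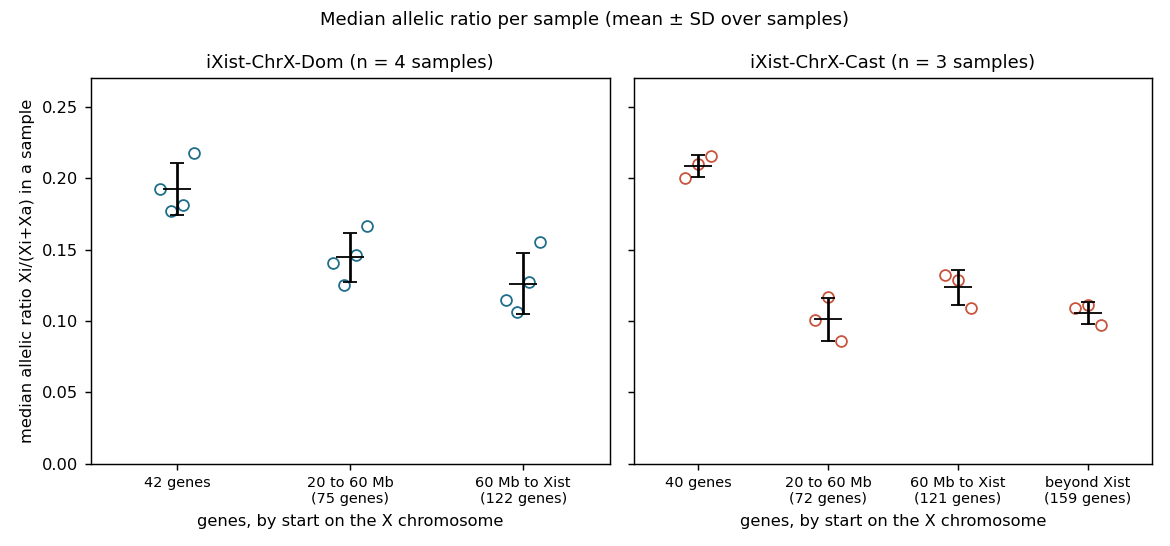
Median allelic ratio per sample (open circles) of the genes before 20 Mb and of the other table genes by start on the X chromosome, with the mean ± SD over samples in black; left, iXist-ChrX-Dom, right, iXist-ChrX-Cast. The genes before 20 Mb are highest in every sample, with means of 0.192 and 0.209.

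In iXist-ChrX-Dom 40 of 42 genes had a mean ratio above 0.1 (95.2%), as had 37 of 40 in iXist-ChrX-Cast (92.5%), against 66.7% and 54.0% of the remaining genes. A ratio above 0.2 occurred for 50.0% in both lines, against 28.4% and 22.0%. Above 0.3 stood fewer genes. They were 3 genes (7.14%) in iXist-ChrX-Dom against 12.3% of the remaining genes, and 8 (20.0%) in iXist-ChrX-Cast against 6.13%. The order in iXist-ChrX-Dom rests on the choice of members, since the remaining genes include 5 of the left-out genes above 0.3. With the left-out genes counted among those before 20 Mb, 8 of 49 (16.3%) and 11 of 46 (23.9%) were above 0.3, against 10.2% and 5.38% of the table genes from 20 Mb on.

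Within the stretch, the genes from 6.0 to 8.3 Mb had medians of 0.197 ± 0.0187 (iXist-ChrX-Dom, 28 genes) and 0.252 ± 0.00800 (iXist-ChrX-Cast, 26 genes). The 5 genes from 9.2 to 10.6 Mb had 0.160 ± 0.0375 and 0.166 ± 0.0492, and the 7 from 12.0 to 13.8 Mb had 0.170 ± 0.0314 and 0.168 ± 0.00803. Maoa and Efhc2, at 16.6 to 17.3 Mb, had 0.240 ± 0.0728 and 0.0754 ± 0.00891, the highest of the groups in iXist-ChrX-Dom and the lowest in iXist-ChrX-Cast, with only 2 genes. In iXist-ChrX-Cast the first group was above the others in every sample. The 3 table genes just past the limit of 20 Mb, Chst7, Slc9a7 and Rp2h, had mean ratios of 0.203, 0.0627 and 0.149 (iXist-ChrX-Dom) and of 0.176, 0.148 and 0.140 (iXist-ChrX-Cast). The genes left out had 0.547 and 0.420 (Suv39h1), 0.437 and 0.389 (Kdm6a), 0.497 and 0.134 (Fundc1), 0.307 and 0.306 (Ddx3x), 0.209 and 0.0924 (Shroom4) and 0.186 and 0.209 (Usp9x) in the lines in that order. Dynlt3, in the iXist-ChrX-Dom table only, had 0.803. With them the medians were 0.200 and 0.211.

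**Figure D2:**
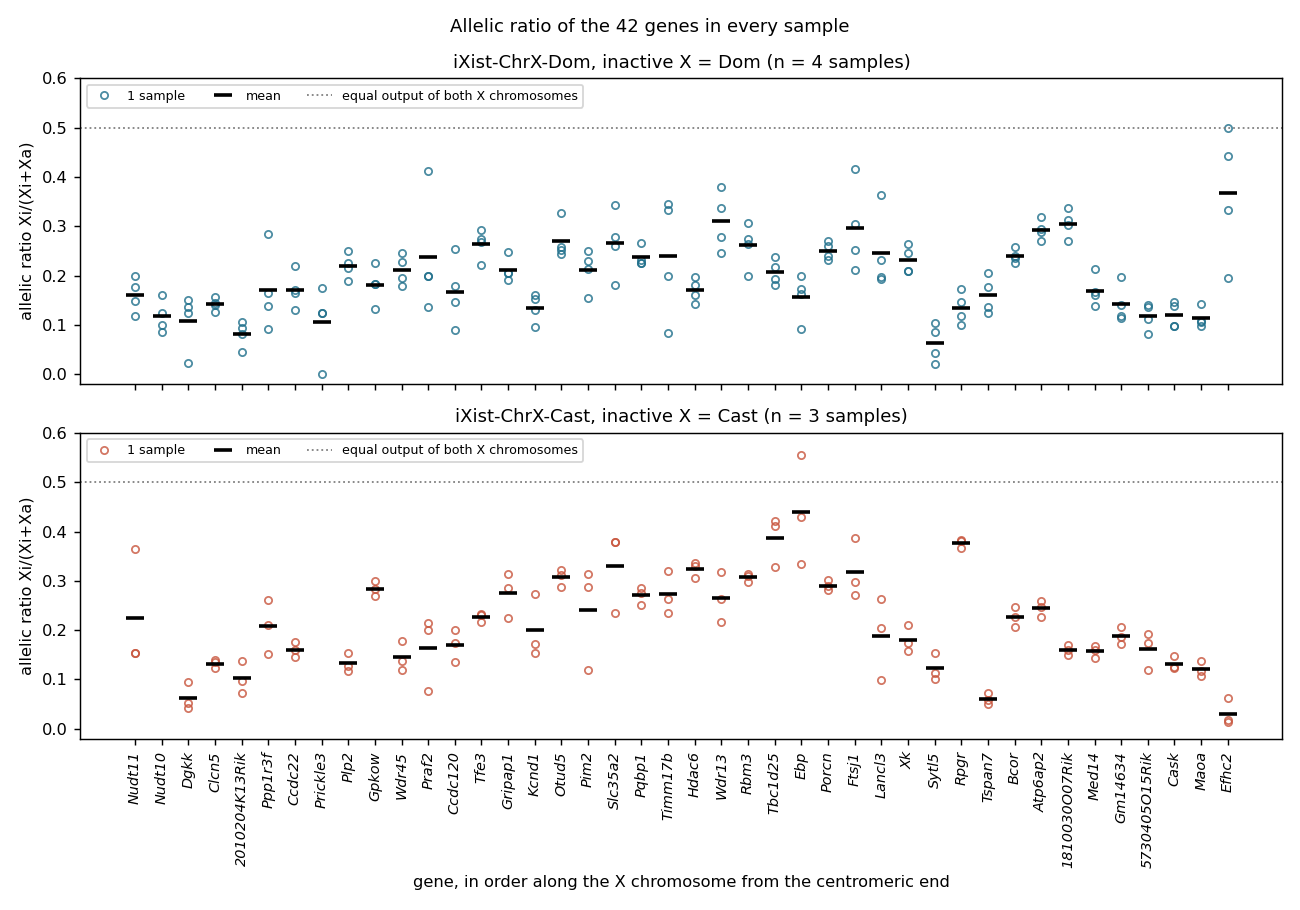
Allelic ratio of each of the 42 genes in every sample (open circles) and its mean (black bars), in order along the X chromosome; top, iXist-ChrX-Dom (n = 4), bottom, iXist-ChrX-Cast (n = 3), with the dotted line at 0.5. Most genes have a mean between 0.1 and 0.3 in both lines. By their means 8 genes lie above 0.3 in iXist-ChrX-Cast and below it in iXist-ChrX-Dom, the highest of them Ebp, Tbc1d25 and Rpgr. Efhc2 is the highest in iXist-ChrX-Dom and the lowest in iXist-ChrX-Cast.

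Genes of transcription, chromatin and RNA handling had the highest median ratio of the role groups in both lines, 0.224 ± 0.00932 and 0.275 ± 0.00220 over 8 genes. They are Tfe3, a transcription factor of lysosome genes, Bcor, a corepressor in a variant Polycomb complex, Med14, the backbone of Mediator, Hdac6, a cytoplasmic deacetylase of tubulin, Pqbp1 and Gpkow of the splicing machinery, the cold-inducible RNA-binding protein Rbm3 and the tRNA methyltransferase Ftsj1. Rbm3, one of the most deeply counted of them (930 to 1683 allelic fragments per sample), had 0.261 ± 0.0447 and 0.307 ± 0.00817. Med14 was the lowest of the 8 in both lines, 0.170 ± 0.0314 and 0.157 ± 0.0124. Ftsj1 was the highest in iXist-ChrX-Dom, with 0.304, 0.253, 0.211 and 0.417 (0.296 ± 0.0891). Hdac6, by its cytoplasmic role a loose member of this group, was the highest in iXist-ChrX-Cast (0.324 ± 0.0155). The group was not summarised without Hdac6. All of its genes except Bcor and Med14 lie from 6.0 to 8.3 Mb, so role and position were not told apart. The SD given for the group is over samples and not over genes.

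The 9 genes of membrane traffic, endosomes and autophagy had medians of 0.185 ± 0.0174 and 0.197 ± 0.0182. They are Ccdc22 of endosomal recycling, the autophagy factor Wdr45, Praf2, Gripap1 of recycling endosomes, the RAB GTPase-activating protein Tbc1d25, the RAB27 effector Sytl5, the endosomal chloride/proton exchanger Clcn5, the proton pump subunit Atp6ap2 and the ciliary protein Rpgr. Sytl5 gave 0.0200, 0.0438, 0.0851 and 0.103 in iXist-ChrX-Dom, the lowest mean of the 42 (0.0631 ± 0.0380), and 0.154, 0.100 and 0.113 in iXist-ChrX-Cast. Clcn5 (638 to 1311 allelic fragments) had nearly the same mean in both lines, 0.142 ± 0.0124 and 0.132 ± 0.00885.

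Metabolic genes had medians of 0.141 ± 0.0303 (7 genes) and 0.216 ± 0.0852 (6 genes). This group holds the inositol polyphosphate phosphohydrolases Nudt10 and Nudt11, near-identical copies whose few fragments (8 to 35 allelic per sample) cannot be assigned with certainty, the diacylglycerol kinase Dgkk, Ppp1r3f, which targets protein phosphatase 1 to glycogen, the UDP-galactose transporter Slc35a2, the sterol isomerase Ebp and monoamine oxidase A, Maoa. Maoa (951 to 1383 allelic fragments) was low in both lines, 0.113 ± 0.0196 and 0.120 ± 0.0163. Dgkk was low as well, at 0.0222, 0.150, 0.125 and 0.136 in iXist-ChrX-Dom and 0.0417, 0.0943 and 0.0513 in iXist-ChrX-Cast, on 16 to 53 allelic fragments. Slc35a2 was among the 4 highest in iXist-ChrX-Cast, with 0.379, 0.235 and 0.378.

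Signalling and ubiquitin genes had medians of 0.207 ± 0.0358 (5 genes) and 0.262 ± 0.0422 (4 genes). They are the kinase Pim2, the deubiquitinase Otud5, Porcn, which lipidates WNT ligands, the polarity protein Prickle3 and the scaffold kinase Cask. Otud5 had 0.270 ± 0.0382 and 0.307 ± 0.0184 and Cask, the longest of the 42 genes, 0.120 ± 0.0258 and 0.132 ± 0.0133. Prickle3 gave 0, 0.125, 0.125 and 0.174 in iXist-ChrX-Dom on 8 to 23 fragments. Its 0 rests on 10 fragments, for which the 95% Wilson interval reaches 0.278, and such intervals cover counting error only, since fragments carried no molecular identifiers.

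Channels and membrane proteins, the potassium channel Kcnd1, the Kell complex subunit Xk, the tetraspanin Tspan7, the proteolipid protein Plp2 and the mitochondrial import subunit Timm17b, had medians of 0.187 ± 0.0432 and 0.174 ± 0.0316. The 8 little characterised or noncoding genes (2010204K13Rik, Ccdc120, Wdr13, Lancl3, 1810030O07Rik, Gm14634, 5730405O15Rik and Efhc2) had 0.206 ± 0.0528 and 0.165 ± 0.0262. Wdr13, a WD repeat protein, was the second highest in iXist-ChrX-Dom with 0.278, 0.247, 0.337 and 0.380. 2010204K13Rik was among the 4 lowest in both lines, at 0.106, 0.0811, 0.0455 and 0.0926 and at 0.0968, 0.0732 and 0.137.

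In 2 pairs, genes read in opposite directions start close to each other, 128 and 304 bp apart. Pqbp1 and Timm17b had means of 0.237 ± 0.0202 and 0.240 ± 0.124 in iXist-ChrX-Dom and 0.271 ± 0.0184 and 0.273 ± 0.0432 in iXist-ChrX-Cast. Med14 and Gm14634 had 0.170 ± 0.0314 and 0.142 ± 0.0380, and 0.157 ± 0.0124 and 0.188 ± 0.0173. Timm17b ranged from 0.0833 to 0.345 over the iXist-ChrX-Dom samples, and Med14 was above Gm14634 in every iXist-ChrX-Dom sample and below it in every iXist-ChrX-Cast sample. With 2 such pairs no test was made.

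Across the 40 genes in both tables, the mean ratios of the lines had a Spearman rho of 0.385, against 0.354 over the 195 remaining shared genes, and 0.257 over the 31 with a mean of at least 50 allelic fragments. The ratio and gene length had a rho of -0.105 (42 genes) and -0.315 (40 genes), the ratio and CPM per kb 0.273 and 0.279, and the ratio and the start position 0.187 and -0.048. These values are across genes, which share libraries and depth, and are descriptions.

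The lines were then compared gene by gene, with limma on log2((ratio + 0.01)/(1 - ratio + 0.01)), the log-odds, fitted over all 235 shared genes with Benjamini-Hochberg adjustment over them. Of the 40 genes, 9 differed at an adjusted p under 0.05 (22.5%), 4 higher and 5 lower in iXist-ChrX-Dom, against 33.2% of all genes tested (19.1% higher and 14.0% lower). The samples of the lines did not overlap in 11 of 40 (27.5%; the 9 and Porcn and Atp6ap2), against 44.7% of all. Both shares were below those of the table as a whole, with no test of that difference. A change of line is also a change of the allele on Xi, so line, Xi identity and strain allele cannot be told apart in these differences. Corrected for the autosomal share of Cast fragments (47.2% to 48.1%), which set the median log-odds difference of all genes at -0.26 from 0.0082, 12 of the 40 differed (3 higher, 9 lower) against 38.3% of all (15.3% higher and 23.0% lower). An alternative chosen after seeing the data left out of that share chromosomes 1, 5, 8, 12 and 14, which stood over 3 percentage points from the median chromosome in at least 1 sample. The share was then 46.5% to 47.1% and the median of all genes -0.35, and 17 of the 40 differed (3 higher, 14 lower) against 45.1% of all (15.3% higher and 29.8% lower). Without iXist-ChrX-Cast replicates 1 and 2 the count was 2, with 1 sample of that line left and its spread taken from the other line, and without iXist-ChrX-Dom replicates 3 and 4 it was 10.

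Rpgr and Ebp had the largest differences among the genes lower in iXist-ChrX-Dom. The ratio of Rpgr, a regulator of ciliary transport whose human gene is mutated in retinitis pigmentosa, was 0.118, 0.0990, 0.146 and 0.172 in iXist-ChrX-Dom and 0.382, 0.380 and 0.366 in iXist-ChrX-Cast, on 834 to 999 allelic fragments. The difference in log-odds was -1.92 ± 0.23 (SE; limma, adjusted p = 0.000938). Ebp, an enzyme of cholesterol synthesis, gave 0.198, 0.0917, 0.163 and 0.172 against 0.556, 0.333 and 0.430 (-2.06 ± 0.40; limma, adjusted p = 0.00698). All 3 samples of iXist-ChrX-Cast were above all 4 of iXist-ChrX-Dom for both genes. The highest value of Ebp rests on 27 fragments (95% Wilson interval 0.373 to 0.724), and within replicates 1 and 2 its adjusted p was 0.0829 (limma).

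Tbc1d25 gave 0.193, 0.181, 0.218 and 0.238 against 0.421, 0.412 and 0.328 (-1.24 ± 0.21; limma, adjusted p = 0.00483). Hdac6 gave 0.143, 0.160, 0.180 and 0.197 against 0.331, 0.335 and 0.306 (-1.19 ± 0.18; limma, adjusted p = 0.00263). Gpkow gave 0.183, 0.184, 0.225 and 0.132 against 0.269, 0.299 and 0.283 (-0.84 ± 0.23; limma, adjusted p = 0.0308). None of these overlapped between the lines, and the call of Gpkow was lost when any 1 of 5 of the 7 samples was left out (iXist-ChrX-Dom replicate 1 or 2, or any replicate of iXist-ChrX-Cast; limma, adjusted p 0.0608 to 0.0923).

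Efhc2, a protein of motile cilia, was the highest gene of iXist-ChrX-Dom and the lowest of iXist-ChrX-Cast. Its ratio was 0.333, 0.195, 0.500 and 0.442 in the former and 0.0625, 0.0128 and 0.0169 in the latter (3.96 ± 0.60; limma, adjusted p = 0.00263), on 30 to 118 fragments. The sample at 0.500 had a 95% Wilson interval of 0.371 to 0.629. Within replicates 1 and 2 the adjusted p was 0.0543 (limma). Other genes also moved far in the order. Ranked from the highest mean in each line, Ebp went from 30 in iXist-ChrX-Dom to 1 in iXist-ChrX-Cast. Rpgr went from 34 to 3 and 1810030O07Rik from 3 to 29.

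Tspan7 gave 0.137, 0.123, 0.176 and 0.205 in iXist-ChrX-Dom and 0.0722, 0.0577 and 0.0495 in iXist-ChrX-Cast (1.44 ± 0.25; limma, adjusted p = 0.00522). 1810030O07Rik gave 0.302, 0.271, 0.337 and 0.312 against 0.151, 0.169 and 0.159 (1.17 ± 0.17; limma, adjusted p = 0.00218). Plp2 gave 0.250, 0.189, 0.225 and 0.216 against 0.127, 0.154 and 0.118 (0.84 ± 0.19; limma, adjusted p = 0.0143). None of these overlapped between the lines, and Plp2 lost its call under the autosomal correction (limma, adjusted p = 0.0581), within replicates 1 and 2 (0.118), without iXist-ChrX-Dom replicates 3 and 4 (0.0707) and without iXist-ChrX-Cast replicate 1 (0.0529). Plp2 also overlaps Prickle3, on the opposite strand.

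**Figure D3:**
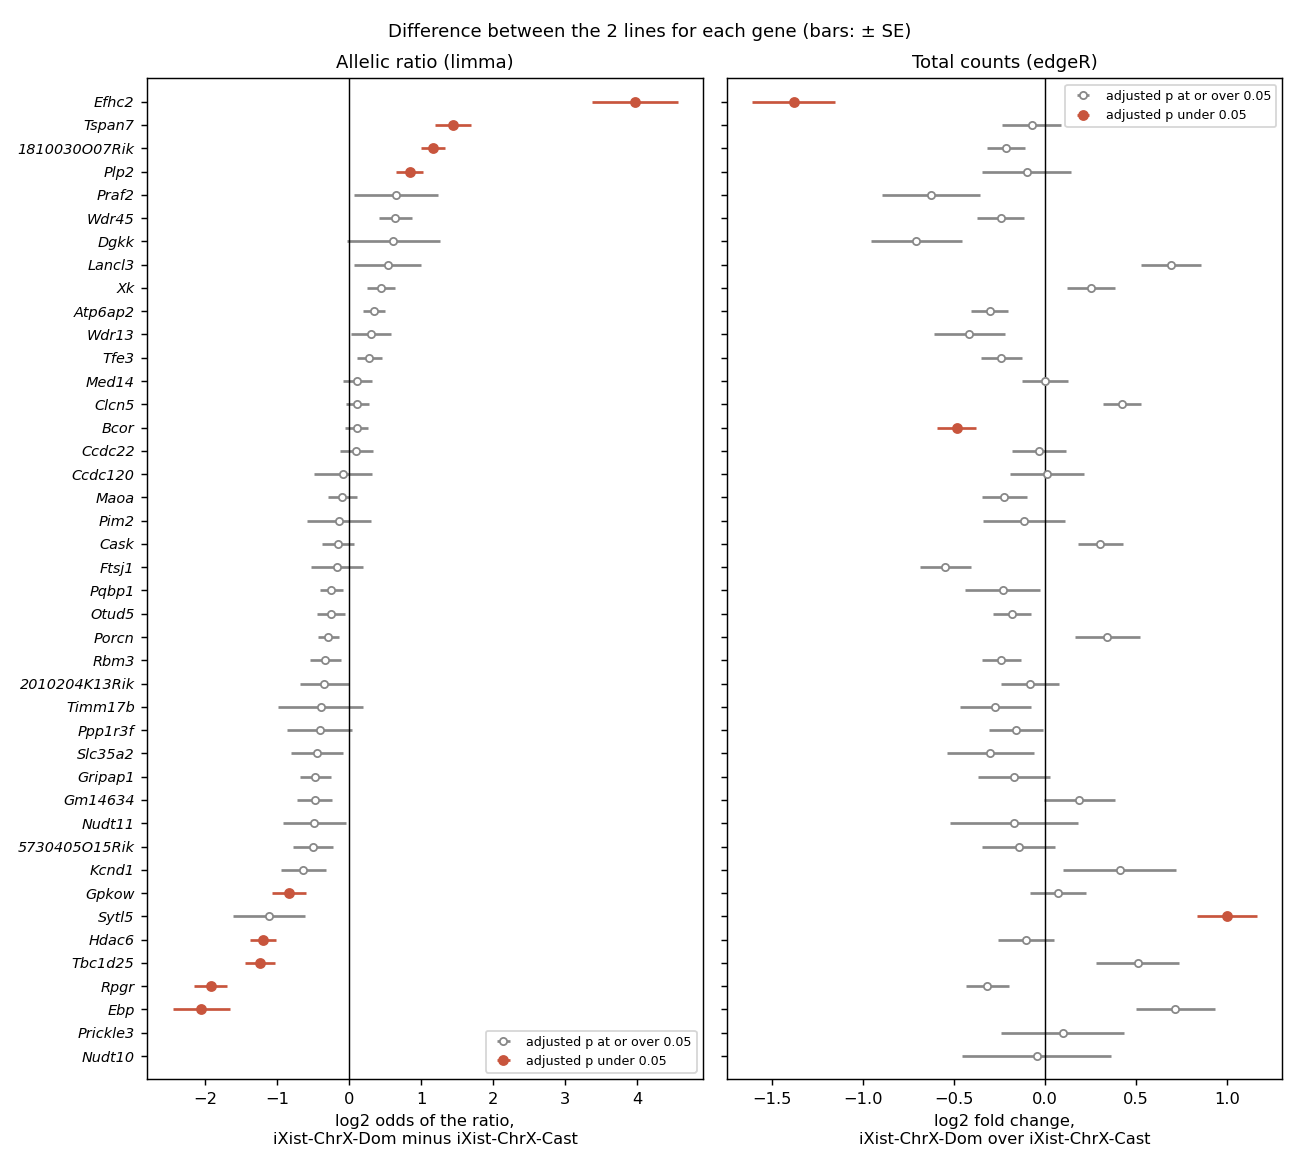
Difference between the lines for each of the 42 genes, as log2 odds of the allelic ratio (left, limma, 40 genes) and log2 fold change of total counts (right, edgeR), with ± SE; filled points have an adjusted p under 0.05. Of the 9 genes filled on the left, Efhc2 is the one also filled on the right, at 3.96 and -1.38.

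To set Xi against Xa for an unchanged allele, the Dom-assigned fragments of iXist-ChrX-Dom, where they come from Xi, were compared with those of iXist-ChrX-Cast, where they come from Xa, and the Cast-assigned fragments the other way round. This removes the strain allele but keeps any difference in total output between the lines. Nearly all genes were lower on Xi for both alleles. Of 38 tested for the Dom allele, 35 were lower on Xi (edgeR, adjusted p under 0.05 over all 12569 genes, of which 4.0% were lower in iXist-ChrX-Dom). Of 39 tested for the Cast allele, 36 were lower on Xi (8.03% of 12149 genes). These are 92.1% and 92.3% of the genes tested. Among the remaining genes of both tables the shares were 97.9% (188 genes) and 96.3% (191 genes), so the result was not particular to this stretch. Samples on Xi and Xa did not overlap in 41 of 42 genes for each allele (Ebp and Ftsj1 were the exceptions), against 8.23% and 11.4% of genes in that direction. These shares of all genes include chromosomes 5 and 8, whose median Cast share ran from 45.7% to 64.0% and from 45.3% to 64.0% over the 7 samples. Nudt10, Nudt11, Prickle3 and Kcnd1 were not tested for the Dom allele and Nudt10, Prickle3 and Praf2 not for the Cast allele, as their counts fell under the filter, which a gene could pass through its level on Xa alone.

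The level on Xi as a percentage of that on Xa, the share kept, had a median of 22.5% for the Dom allele and 27.8% for the Cast allele over the tested genes. The remaining genes of both tables kept 14.5% (188 genes) and 15.8% (191 genes). The least was kept by Dgkk for the Dom allele (5.82%, 95% interval 3.38 to 10.0; log2 difference -4.10 ± 0.40, edgeR adjusted p = 9.79e-06), with 1 to 6 fragments per sample on Xi and 37 to 48 on Xa. For the Cast allele it was Sytl5 (6.82%, 4.63 to 10.0; -3.87 ± 0.29, edgeR adjusted p = 1.33e-06), with 4 to 6 fragments on Xi and 78 to 131 on Xa. Next in the Dom allele came 2010204K13Rik (10.5%), 5730405O15Rik (11%), Maoa (11.2%) and Sytl5 (13.8%), and in the Cast allele Tspan7 (7.17%), 2010204K13Rik (10.8%), Efhc2 (11.5%) and Clcn5 (11.7%), each below its Xa level in edgeR.

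For 6 genes the test missed the threshold, and each estimate was below the level on Xa. For the Dom allele, Lancl3 kept 49.4% (34.3 to 71.2; edgeR adjusted p = 0.0508), Tbc1d25 47.4% (31.1 to 72.2; edgeR adjusted p = 0.0783) and Ebp 47.1% (27.7 to 79.9; edgeR adjusted p = 0.175). For the Cast allele, Ftsj1 kept 69.7% (51.2 to 94.9; edgeR adjusted p = 0.183), Slc35a2 54.2% (34.2 to 86.1; edgeR adjusted p = 0.121) and Pqbp1 51.3% (32.9 to 79.9; edgeR adjusted p = 0.0733). With a replicate block, Lancl3 and Tbc1d25 passed for the Dom allele (edgeR adjusted p = 0.000735 and 2.6e-05) and Slc35a2 for the Cast allele (0.0480). Timm17b passed for both alleles (edgeR adjusted p = 0.0355 and 0.0247) and lost the call for each when single samples were left out, with 2 to 10 fragments per sample on Xi.

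The shares kept of the alleles had a rho of 0.563 over the 37 genes tested for both. Their 95% intervals overlapped for 29 genes and were apart for 8, with more kept of the Dom allele for Clcn5, Lancl3 and Tspan7 and more of the Cast allele for Gripap1, Hdac6, Ftsj1, Rpgr and Bcor. The difference between the shares was not tested. A difference in total output between the lines moves the shares of the alleles in opposite directions. The log2 fold change of total counts, iXist-ChrX-Dom over iXist-ChrX-Cast, was 0.42, 0.69 and -0.07 for the genes keeping more of the Dom allele. For those keeping more of the Cast allele it was -0.17, -0.11, -0.55, -0.32 and -0.49. Total counts include the fragments assigned to the alleles, so these values are not independent of the shares kept. In ratio only Tspan7, Hdac6 and Rpgr of these genes differed, and Bcor was higher in iXist-ChrX-Dom (0.240 against 0.227).

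**Figure D4:**
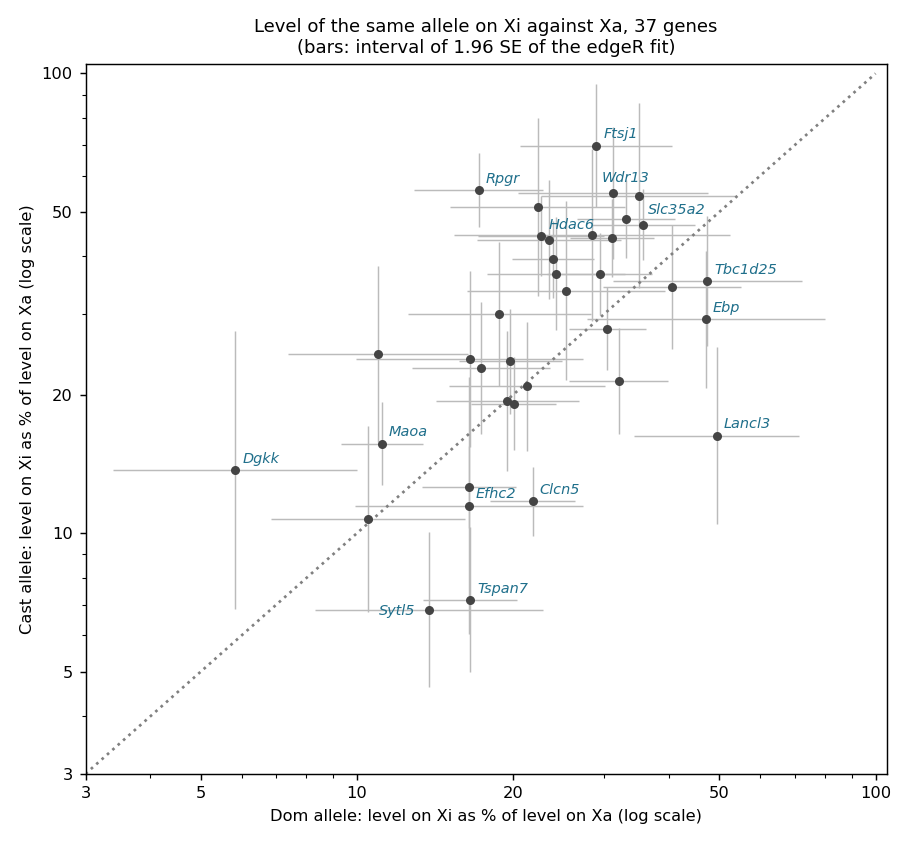
Level on Xi as a percentage of the level on Xa for the Dom allele (x axis) and the Cast allele (y axis) of the 37 genes tested for both, on log scales, with 95% intervals of the edgeR fit and the line of equality dotted. Rpgr (17.2% and 55.8%) and Lancl3 (49.4% and 16.3%) lie farthest from the line on either side. A difference in total output between the lines is not removed and moves the shares of the alleles in opposite directions.

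Seen by allele, the 9 genes that differed in ratio were not alike. Values are CPM of the fragments assigned to 1 allele, scaled within that allele, so levels of the alleles compare with each other only loosely. For Rpgr the alleles on Xa were near each other, at 140 ± 19 (Dom) and 159 ± 10.9 CPM (Cast), and on Xi stood at 24.2 ± 7.86 and 88.6 ± 15.1 CPM. Hdac6 had 95 ± 20.3 and 107 ± 12.6 on Xa and 21.7 ± 5.85 and 47.1 ± 7.09 on Xi. Tspan7 had 87.3 ± 16 and 80.4 ± 18.0 on Xa and 14.4 ± 0.705 and 5.93 ± 2.32 on Xi.

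Efhc2, in contrast, had unequal alleles on both chromosomes. The Dom allele gave 20.3 ± 4.44 CPM on Xa and 3.43 ± 2.20 on Xi, and the Cast allele 5.42 ± 0.978 and 0.652 ± 0.547. The shares kept were 16.4% (9.90 to 27.2) and 11.5% (6.05 to 21.8), with overlapping intervals, while the ratios of the lines did not overlap in any sample. Ebp had 7.62 ± 3.44 (Dom) and 20.2 ± 4.18 CPM (Cast) on Xa and 3.71 ± 1.43 and 5.79 ± 1.65 on Xi, and Tbc1d25 21.3 ± 5.74 and 38.9 ± 11.7 on Xa and 10.3 ± 4.55 and 13.7 ± 0.820 on Xi. For both, the allele with the higher ratio on Xi was the one with the higher level on Xa. The estimated share kept, in contrast, was lower for the Cast allele in both genes, with overlapping intervals. The Cast level on Xa was 3.43 (Ebp) and 2.82 (Tbc1d25) times that on Xi by edgeR. The Dom level on Xi was 0.471 and 0.474 times that on Xa.

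1810030O07Rik kept 30.4% and 27.8%, Plp2 21.3% and 20.9% and Gpkow 24.2% and 36.7% of the Dom and Cast alleles. The levels on Xa were 77.2 ± 1.87 and 55.0 ± 4.44 CPM for 1810030O07Rik, 41.0 ± 13.5 and 31.7 ± 5.77 CPM for Plp2 and 26.0 ± 1.35 and 29.4 ± 5.80 CPM for Gpkow. The intervals of the share kept overlapped for all of these.

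Total counts, both alleles and unassigned fragments together, were compared between the lines with edgeR over 15186 genes. Of the 42, 3 differed (7.14%), 1 higher and 2 lower in iXist-ChrX-Dom, against 2.92% of all genes (1.2% higher and 1.72% lower). Sytl5 was higher in iXist-ChrX-Dom, with 7.76, 8.70, 8.80 and 8.11 CPM against 4.50, 3.67 and 4.36 (log2 fold change 1.00 ± 0.16; edgeR, adjusted p = 0.0169). Efhc2 was lower, with 2.89, 4.06, 5.71 and 4.80 CPM against 11.1, 9.63 and 13.2 (-1.38 ± 0.23; edgeR, adjusted p = 0.0174), and so was Bcor, with 66.2, 63.2, 61.8 and 71.0 CPM against 96.4, 98.1 and 80.9 (-0.49 ± 0.11; edgeR, adjusted p = 0.0440). No sample overlapped between the lines in these 3 genes.

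Same-numbered samples deviated together in total counts (correlations 0.275 to 0.466), and so did samples of unlike number within replicates 1 and 2 and within replicates 3 and 4 (0.323 to 0.505), so the number was not told apart from this sample set. With the number as a block, 10 of the 42 differed, 4 higher and 6 lower, against 11.8% of all genes (5.37% higher and 6.45% lower), and with the sample set as a covariate 15, 6 higher and 9 lower, against 15.8% (7.51% higher and 8.28% lower). Added by the block were Lancl3 (0.66 ± 0.17), Ebp (0.65 ± 0.17) and Clcn5 (0.36 ± 0.11) as higher and Dgkk (-0.72 ± 0.21), Wdr13 (-0.56 ± 0.15), Ftsj1 (-0.56 ± 0.16) and Rpgr (-0.35 ± 0.12) as lower in iXist-ChrX-Dom (edgeR, adjusted p 0.00871 to 0.0415). Samples did not overlap in 13 of 42 genes, 5 higher and 8 lower, against 16.0% of all genes. The count without a block was 0 when iXist-ChrX-Dom replicate 2 or iXist-ChrX-Cast replicate 1 or 2 was left out, 1 without iXist-ChrX-Dom replicate 3 and 6 without iXist-ChrX-Cast replicate 3. It was 1 without iXist-ChrX-Dom replicates 3 and 4 and 0 without iXist-ChrX-Cast replicates 1 and 2.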

How the data were processed

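Chromatin-associated RNA (ChrRNA-seq) was analysed for 4 iXist-ChrX-Dom and 3 iXist-ChrX-Cast samples, grouped by line as the labels give it. Ribosomal RNA reads had been removed by the authors with Bowtie2 2.3.2, and the rest aligned with STAR 2.4.2a to mm10 with strain polymorphisms masked. Unique alignments were kept, split by parental genome with SNPsplit and counted over whole transcripts, introns included, with featureCounts 1.5.2. The deposited files hold raw fragment counts per gene (total, Cast-assigned and Dom-assigned), and the deposited ratio tables hold the fraction of allelic fragments from Xi for those X-linked genes that passed the authors' filters on allelic depth and on the ratio before induction. Every deposited ratio equalled the value computed from the counts. Per the file headers, pairs were counted by strand, with no option for fragments that overlap several genes; Xk and Bcor overlap a gene on their strand.

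Ratios were compared with limma 3.58.1 and counts with edgeR 4.0.16 (filterByExpr, TMM, quasi-likelihood F test, two-sided) in R 4.3.3, with Benjamini-Hochberg adjustment over all genes tested and a threshold of 0.05. Standard errors of edgeR fits are the fold change over the square root of F, and 95% intervals are 1.96 of these. Summaries and plots were made in Python 3.11.15 with pandas 2.3.3, numpy 2.4.6, matplotlib 3.10.9 and scipy 1.17.1. The autosomal allele share was the median over 10026 genes of all autosomes. The fits were tested on simulated data.

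Same-numbered samples of the lines deviated together in total counts (correlations of deviations 0.329, 0.275 and 0.466) but not in ratios (-0.123, -0.0956 and -0.111), so the replicate block is given beside results on counts. Samples of unlike number within replicates 1 and 2 and within 3 and 4 correlated as much in total counts (0.384, 0.323 and 0.505), so number and sample set were not told apart. No 2 replicates were the same library (chi-square per gene 6.51 to 39.9). Values in every sample are given for the 4 highest and 4 lowest genes of each line and for genes that differed in ratio or total counts, and differences for at most 5 genes in each direction of each comparison without a block; those added by the block and those that missed the threshold in the comparison of Xi with Xa were named after their values were seen. The members, gene lists and tests were chosen with earlier results of these data known. Alternatives were other log-odds offsets, untransformed ratios, correction for the autosomal allele share, edgeR on allelic counts, DESeq2 1.42.0, other scalings, no expression filter, a replicate block, the sample set (replicates 1 and 2 against 3 and 4, which the file names part) as a covariate, the replicates 1 and 2 alone and leaving out each sample, and, chosen after seeing the data, leaving chromosomes of uneven allele share out of that correction and leaving out the samples whose labels or file names disagree.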

Additional observations from a re-analysis of the deposited data

Results flagged for a closer look

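The allelic ratio differed between the lines for 9 of the 40 genes in both tables, by limma on the log-odds over 235 genes (iXist-ChrX-Dom minus iXist-ChrX-Cast, adjusted p under 0.05). The values were 3.96 for Efhc2, 1.44 for Tspan7, 1.17 for 1810030O07Rik and 0.84 for Plp2, and -2.06 for Ebp, -1.92 for Rpgr, -1.24 for Tbc1d25, -1.19 for Hdac6 and -0.84 for Gpkow.

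Among 84 sets of 4 iXist-ChrX-Dom values (the ratio and the total CPM of each gene), 1 held a sample far from the others by Dixon's test, where chance gives about 1 in 20. The ratio of Pqbp1 was 0.267 in replicate 2 and 0.224 to 0.231 in the other samples.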

How the results depend on the processing

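Of the counts of differing genes and the medians, 88 values under an alternative stayed within 1.5 times or 1 SD of the reported one and 20 did not, and none reversed. In ratio, 9 genes differed, 12 after correction for the autosomal allele share, 17 with the uneven chromosomes left out of that share, 2 without iXist-ChrX-Cast replicates 1 and 2, and 7 to 10 when 1 sample was left out. In total counts, 3 differed, against 7 with DESeq2, 10 with the replicate block, 15 with the sample set as a covariate, 8 within replicates 1 and 2, 1 without iXist-ChrX-Dom replicates 3 and 4, 0 without iXist-ChrX-Cast replicates 1 and 2, and 0 to 6 when 1 sample was left out (at an unadjusted p under 0.05, 14 of the 42 with all samples by edgeR, and 7 to 12 where the count fell to 0 with 1 sample left out). The counts of genes lower on Xi stayed at 34 to 37 for each allele when 1 sample was left out. Without iXist-ChrX-Dom replicates 3 and 4 they were 38 of 42 tested (Dom allele) and 35 of 40 (Cast allele). Without iXist-ChrX-Cast replicates 1 and 2, which leaves 1 sample of that line, only effect sizes are given. The median log2 difference, iXist-ChrX-Dom over iXist-ChrX-Cast, was then -2.22 (Dom allele) and 1.90 (Cast allele), against -2.15 and 1.84 with all samples. The replicate block left 7 genes in ratio, where the numbers do not pair the samples (Gpkow and Plp2 lost their calls), and 37 genes lower on Xi for each allele.

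The median ratio moved by more than 1 SD under the autosomal correction in iXist-ChrX-Cast (0.225) and, with the uneven chromosomes left out of the share, in both lines (iXist-ChrX-Dom 0.173, iXist-ChrX-Cast 0.231). The difference from the other table genes was 0.0337 and 0.0753 with means over genes in place of medians, 0.0694 in iXist-ChrX-Dom with the 7 left-out genes counted in, and 0.114 in iXist-ChrX-Cast without replicates 1 and 2. The cause of these shifts was not tested. Leaving out 1 sample gave medians of 0.184 to 0.197 and 0.205 to 0.213, and differences of 0.0507 to 0.0610 and 0.0857 to 0.101, for the lines in that order. Among single genes, 701 values under an alternative stayed on their side of the threshold, 57 fell short of it and 44 passed it, with no change of sign. Depth limits Nudt10, Nudt11, Prickle3, Praf2 and Kcnd1 most.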
